A study of Homo sapiens with 6 samples.

Results

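Genes of ribosome assembly and the nucleolus were followed in MDA-MB-231 cells, a triple-negative breast cancer line, before and after dinaciclib, an inhibitor of cyclin-dependent kinases that include CDK9, which acts in transcription elongation. The gene lists used below and the members were chosen with earlier results of these data known. The members were set by symbol. They were the genes named NOL, NOP, UTP, RRP, WDR or EXOSC followed by a number, together with NCL, NPM1, FBL and DKC1, and 69 of the 11963 genes measured met that rule. There were 9 NOL, 4 NOP, 7 UTP, 7 RRP, 31 WDR and 8 EXOSC genes, and NCL, NPM1 and FBL. DKC1 is not analysed here, because its probe sets carry several gene names. Baseline comprised the 3 samples of 0 h, replicates E, 4 and 5. Dinaciclib stands for the 3 samples that had 12 h of the drug, replicates F, 4 and 5. All cells were of the same line, grown in RPMI with serum, and the drug was added from a stock in DMSO. The labels name no dose and leave unsaid whether baseline cells received DMSO. They also do not tell whether replicates were separate cultures, and the spread that enters each p-value may be technical. The design has no untreated 12 h sample, and an effect of dinaciclib cannot be told apart from one of time, handling or solvent.

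Ribosomes are assembled in the nucleolus. RNA polymerase I makes a long precursor of the ribosomal RNAs, on which the small subunit processome, a large complex with the UTP proteins and the U3 small nucleolar ribonucleoprotein, forms first. Spacers are then cut and trimmed, in part by the exosome, a ring of EXOSC proteins with attached nucleases, and separate sets of factors mature the small and the large subunit. The symbol WDR names only a protein fold, the WD40 repeat, and most WDR genes act elsewhere in the cell, so the 31 WDR genes were divided by known role into 7 of ribosome assembly (WDR3, WDR12, WDR18, WDR43, WDR46, WDR55 and WDR74) and 24 others.

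Each array gave 1 linear intensity per probe set, and every gene is represented by its brightest probe set. Array medians ranged from 53.3 to 66.2 at baseline and from 40.6 to 46.8 after dinaciclib, so the groups did not overlap in overall brightness. The samples named with a letter stood apart on the control probe set for the 5′ part of 18S ribosomal RNA, which read 736 in baseline E and 1155 in dinaciclib F and between 8273 and 9061 in the 4 numbered samples. Of the markers expected to be high in the line, VIM, CD44, AXL, CAV1 and MSN lay between 11.74 and 13.24 log2 units in all samples, while SPARC lay between 2.13 and 4.18. Of those expected to be low, CDH1, ESR1, PGR, FOXA1 and ERBB3 reached at most 5.82 log2 units, but GATA3 lay between 8.04 and 8.65 and KRT19 between 9.73 and 11.55. Messenger RNA was measured in whole cultures, and fewer cells with a transcript and less of it per cell cannot be told apart.

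After dinaciclib 22 of the 69 members fell and none rose, and 47 did not pass the test (limma, Benjamini-Hochberg adjusted p under 0.05 over all genes measured). Of the falls, 20 lay among the UTP, NOL and EXOSC genes and the WDR genes of other roles, and the others were RRP7A and WDR55, whereas NCL, NPM1, FBL and the NOP genes gave no call. Of all genes measured, 16.4% fell and 3.54% rose, and the members' share of falls was 31.9%. At an unadjusted p under 0.05, 30 members were lower and 6 higher (FBL, NOP16, UTP25, WDR3, WDR47 and WDR74). Of all 11963 genes, 3234 were lower and 835 higher at that threshold. The members had a median log2 change of -0.54, against -0.26 for all genes. These figures include the WDR genes of other roles and NOL3 and NOL4, which are not counted here among assembly factors. Of the 43 members left without them, 12 fell (27.9%) and none rose, with a median of -0.41. Changes are on the log2(value + 1) scale, which understates those of dim genes, and SE is the standard error of a change in the fit. The 3 samples of each group did not overlap in 34 members that were lower after dinaciclib, a pattern seen in 30.7% of all genes, and in 8 that were higher, seen in 9.36%. In the remaining 27 members the groups overlapped.

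Members were brighter than most genes. Their median level was 8.78 log2 units and that of all genes 6.41, and among the 7586 genes at or above the 40th percentile of mean signal 35.4% fell. Fitted among those genes, 28 of the 65 members kept were lowered and 6 raised, with a median log2 change of -0.50 against -0.30 for the genes kept. The members' share of falls in that fit was 43.1%. What part of the members' count goes with their brightness was not tested.

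How many members rose varied with the scaling of the arrays. As deposited, 100% of the called members and 82.3% of all called genes were lower. Quantile normalization gave 20 lowered and 5 raised members, 80% lower against 60.2% of called genes. It raised 7.25% of members and 8.89% of all genes and lowered 29.0% and 13.4%. Centring each array on its median gave 17 lowered and 13 raised members, 56.7% lower against 40% of called genes. Here 18.8% of members and 16.3% of all genes were raised, and 24.6% and 10.9% lowered. The members' share of rises thus lay near that of all genes under both scalings. Centring on spiked control probe sets gave 15 lowered and none raised, with 88.6% of called genes lower. The median gene moved from -0.26 as deposited to -0.02, 0.19 and -0.37 under these 3 scalings, and the median member from -0.54 to -0.33, -0.09 and -0.66. For the 43 members without the WDR genes of other roles, NOL3 and NOL4, the median was -0.26, 0.04 and -0.52. Of these 43, quantile normalization lowered 12 and raised 4, median centring lowered 9 and raised 9, and centring on spiked controls lowered 8 and raised 0. The 5 members raised after quantile normalization and the 13 after median centring are named with their subgroups below.

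**Figure D1:**
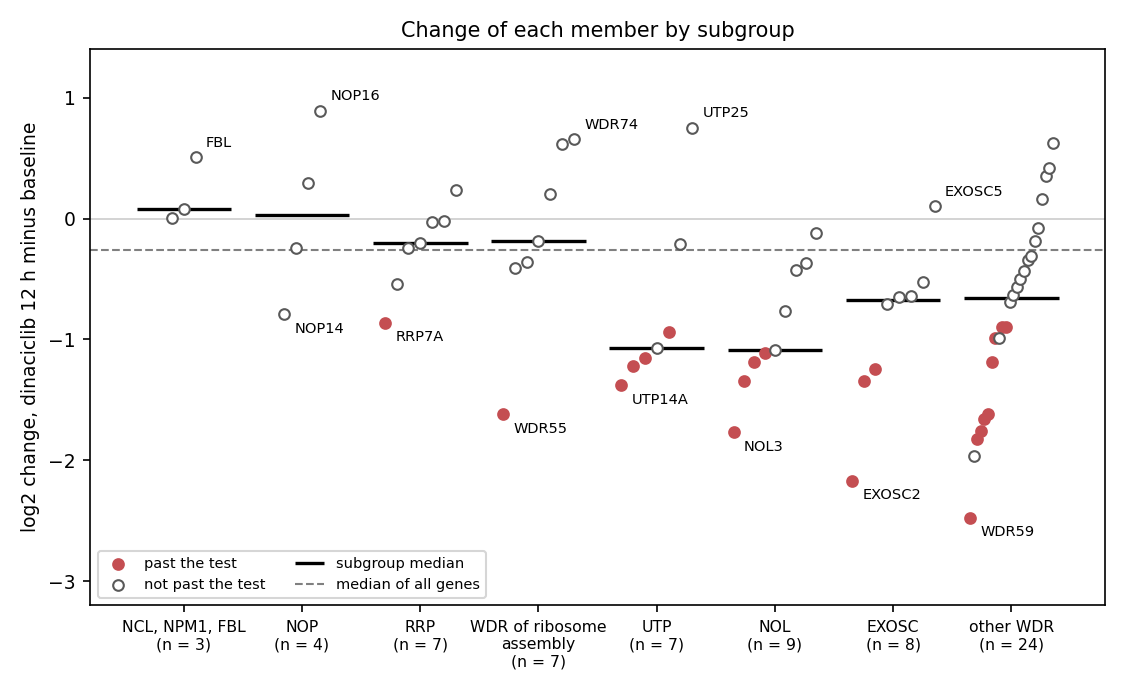
Log2 change of each of the 69 members, dinaciclib 12 h minus baseline, by subgroup; filled points passed the test (limma, Benjamini-Hochberg adjusted p under 0.05), open points did not, bars mark subgroup medians and the dashed line the median of all genes at -0.26. The UTP and NOL medians lie near -1.1, while those of NCL, NPM1 and FBL and of the NOP genes lie just above 0.

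Subgroups differed in their counts and medians, and no test of the difference between subgroups was made. Among the UTP genes 4 of 7 fell, with a median log2 change of -1.07, and among the NOL genes 4 of 9, with a median of -1.09. The EXOSC genes had 3 falls of 8 and a median of -0.68, and the 24 WDR genes of other roles 9 falls and a median of -0.66. Of all genes 16.4% fell. Near that share, 1 of 7 RRP genes fell (median -0.20) and 1 of 7 WDR genes of ribosome assembly (median -0.18), while none did of the 4 NOP genes (median 0.03) or of NCL, NPM1 and FBL (median 0.08). The medians of the UTP, NOL, EXOSC and other WDR genes stayed below 0 under every scaling tried. Those of the RRP genes and the WDR genes of ribosome assembly turned positive after quantile normalization (0.25 and 0.11) and median centring (0.25 and 0.27), and those of the NOP genes and of NCL, NPM1 and FBL turned negative after centring on spiked controls (-0.09 and -0.03).

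The subgroups were also compared within single arrays, where a common scaling factor cancels. Relative to the median of NCL, NPM1 and FBL on the same array, the UTP median was -2.21, -2.23 and -1.87 log2 units in baseline E, 4 and 5 and -3.03, -2.99 and -3.04 in dinaciclib F, 4 and 5. The 3 treated arrays all lay below the baseline arrays. The EXOSC median moved from -3.17, -3.08 and -3.03 to -3.66, -3.67 and -4.01 on the same scale, again without overlap. The median of the WDR genes of ribosome assembly was -3.14, -3.28 and -3.24 at baseline and -3.33, -3.15 and -3.34 after dinaciclib, and here the groups overlapped. Over all genes the median moved from -5.55, -5.52 and -5.46 to -6.24, -6.36 and -6.47, also without overlap. A fall on this scale was therefore not particular to the UTP or EXOSC genes, and the EXOSC median moved less than that of all genes. In the deposited values NCL, NPM1 and FBL thus changed differently from most genes, and which of them moved in absolute terms cannot be read from a ratio. After quantile normalization the median log2 changes lay close together, at 0.01 for NCL, NPM1 and FBL and -0.02 for all genes. The 3 genes are far brighter than most, and a difference between arrays that varies with brightness does not cancel in the ratio. Its part was not tested.

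**Figure D2:**
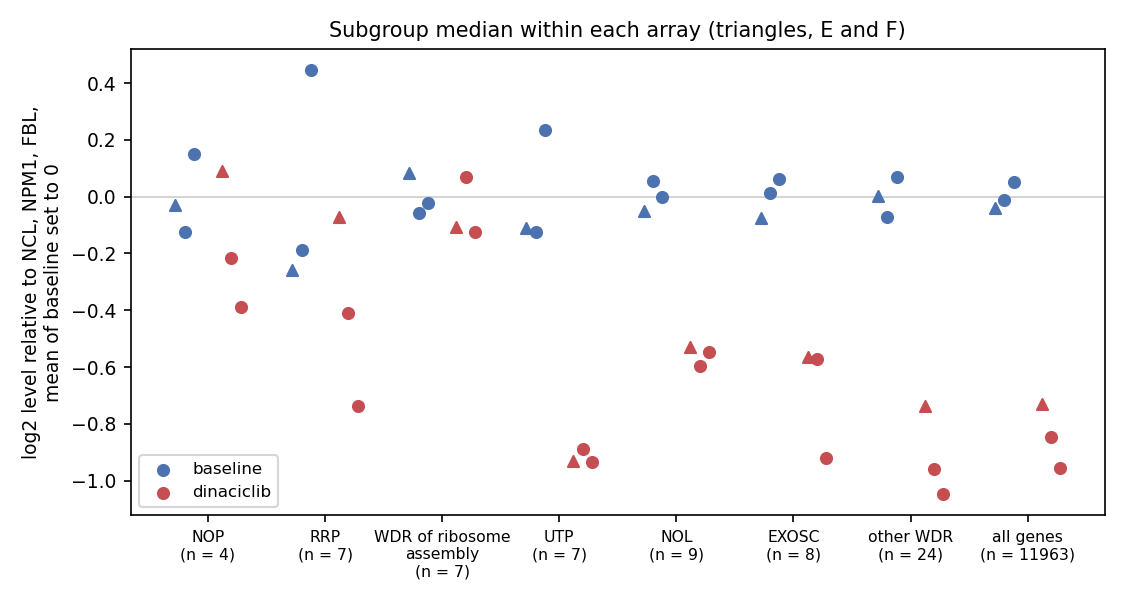
Median log2 level of each subgroup minus the median of NCL, NPM1 and FBL on the same array, shifted so that the mean of the 3 baseline arrays is 0; each point is 1 array, and triangles mark samples E and F. The UTP, NOL, EXOSC and other WDR genes and all genes lie lower on every treated array than on any baseline array, while the NOP, RRP and ribosome-assembly WDR genes overlap.

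Promoters are shown for 5 members that stand for the contrast within complexes, UTP18 and UTP25 of the small subunit processome, EXOSC2 and EXOSC5 of the exosome, and FBL. The choice was made after their values were seen. The sequences are RefSeq's, on GRCh38.p14, from 250 bases before the gene's start to 30 after it, written 5′ to 3′ along the gene. Capitals mark the E-box CACGTG, which MYC and related factors can bind, and the ETS core CCGGAAG on either strand (CTTCCGG on the other).
UTP18, chr17:51260296-51260575, plus strand: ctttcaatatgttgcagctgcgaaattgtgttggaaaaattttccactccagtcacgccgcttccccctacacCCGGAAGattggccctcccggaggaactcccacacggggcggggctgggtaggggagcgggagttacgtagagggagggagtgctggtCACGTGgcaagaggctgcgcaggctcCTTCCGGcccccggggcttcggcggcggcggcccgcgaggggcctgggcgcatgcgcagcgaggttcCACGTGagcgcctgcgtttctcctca
UTP25, chr1:209827722-209828001, plus strand: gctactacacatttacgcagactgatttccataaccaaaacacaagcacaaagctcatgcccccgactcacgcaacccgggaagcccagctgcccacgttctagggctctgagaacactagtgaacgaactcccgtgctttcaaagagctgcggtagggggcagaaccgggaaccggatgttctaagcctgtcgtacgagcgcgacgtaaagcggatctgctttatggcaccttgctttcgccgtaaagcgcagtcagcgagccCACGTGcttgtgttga
EXOSC2, chr9:130693510-130693789, plus strand: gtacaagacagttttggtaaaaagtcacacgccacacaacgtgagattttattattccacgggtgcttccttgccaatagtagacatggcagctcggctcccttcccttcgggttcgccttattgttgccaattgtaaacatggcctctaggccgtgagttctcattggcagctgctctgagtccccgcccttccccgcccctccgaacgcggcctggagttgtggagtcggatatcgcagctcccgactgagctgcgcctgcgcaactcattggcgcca
EXOSC5, chr19:41397330-41397609, minus strand: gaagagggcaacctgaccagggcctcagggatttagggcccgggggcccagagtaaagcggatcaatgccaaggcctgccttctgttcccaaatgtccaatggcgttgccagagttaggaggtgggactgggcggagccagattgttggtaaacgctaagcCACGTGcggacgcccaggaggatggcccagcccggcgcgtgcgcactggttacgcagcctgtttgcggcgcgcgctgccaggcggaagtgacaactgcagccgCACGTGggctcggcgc
FBL, chr19:39846350-39846629, minus strand: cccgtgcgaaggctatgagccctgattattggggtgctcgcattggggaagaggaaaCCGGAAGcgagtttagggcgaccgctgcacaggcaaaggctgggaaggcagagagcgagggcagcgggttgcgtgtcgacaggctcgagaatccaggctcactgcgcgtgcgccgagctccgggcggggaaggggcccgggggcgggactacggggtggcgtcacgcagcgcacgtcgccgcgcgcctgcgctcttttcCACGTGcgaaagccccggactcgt

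The UTP18 promoter, whose gene fell, held E-boxes starting at -89 and +5 from the start site and ETS cores at -177 and -63. That of UTP25, which did not pass the test and was higher in every treated sample, held 1 E-box at +15. EXOSC2, which fell 4.49-fold, had neither motif in this window, and EXOSC5, with a log2 change of 0.10, had E-boxes at -89 and +15. FBL had an E-box at +7 and an ETS core at -193. Promoter sequences were matched for 60 of the 69 members, over 300 bases that end 50 after the start. An E-box lay in 18 of the 60 (30%), against 9.51% of 9562 measured genes and 7.43% of 27305 promoters of that length. The ETS core, too, lay in 18 of 60 (30%), against 15.2% and 10.7%. CCAAT, searched on both strands, was found in 24 of 60 (40%), close to the 37.3% and 35.7% of the same 2 sets, and TATAAA in 3 of 60 (5%), against 8.30% and 12.0%. The E-box lay in 15 of the 40 matched members left when WDR genes of other roles were set aside (37.5%) and in 3 of those 20 WDR genes (15%). The share was the same in members that fell (6 of 20, 30%) and in those that did not pass the test (12 of 40, 30%). For the ETS core the shares were 5 of 20 (25%) and 13 of 40 (32.5%), for CCAAT 11 of 20 (55%) and 13 of 40 (32.5%), and for TATAAA 1 of 20 (5%) and 2 of 40 (5%), and none of these differences was tested. A match of letters is not a bound site, and these shares describe the sequences only.

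NCL, NPM1 and FBL encode the abundant nucleolar proteins nucleolin, nucleophosmin and fibrillarin, the methyltransferase of box C/D small nucleolar ribonucleoproteins. The intensity of NCL was 4385, 5357 and 4710.4 in baseline E, 4 and 5 and 5007, 5013 and 4421 in dinaciclib F, 4 and 5. That of NPM1 was 8428, 10069 and 11068 at baseline and 9191, 10411 and 11623 after dinaciclib. For both, the groups overlapped, with log2 changes of 0.00 (standard error 0.18) and 0.08 (standard error 0.20), and neither passed the test (limma, Benjamini-Hochberg adjusted p = 0.997 and 0.838). NPM1 has many near-identical pseudogene copies in the genome, whose transcripts its probe sets might also read. It had the highest mean signal of the members' probe sets and FBL the lowest of these 3. FBL read 3717, 4336 and 3814 at baseline and 5181, 6107 and 5562 after dinaciclib. All 3 treated samples lay above all 3 baseline samples, but the log2 change of 0.51 (SE 0.18) did not pass the test (limma Benjamini-Hochberg adjusted p = 0.11). FBL passed it as raised after median centring, without dim genes, with log2(value + 16) and with a variance trend and robust estimation, with adjusted p-values from limma between 0.00652 and 0.0444. Under median centring NCL was raised as well.

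**Figure D3:**
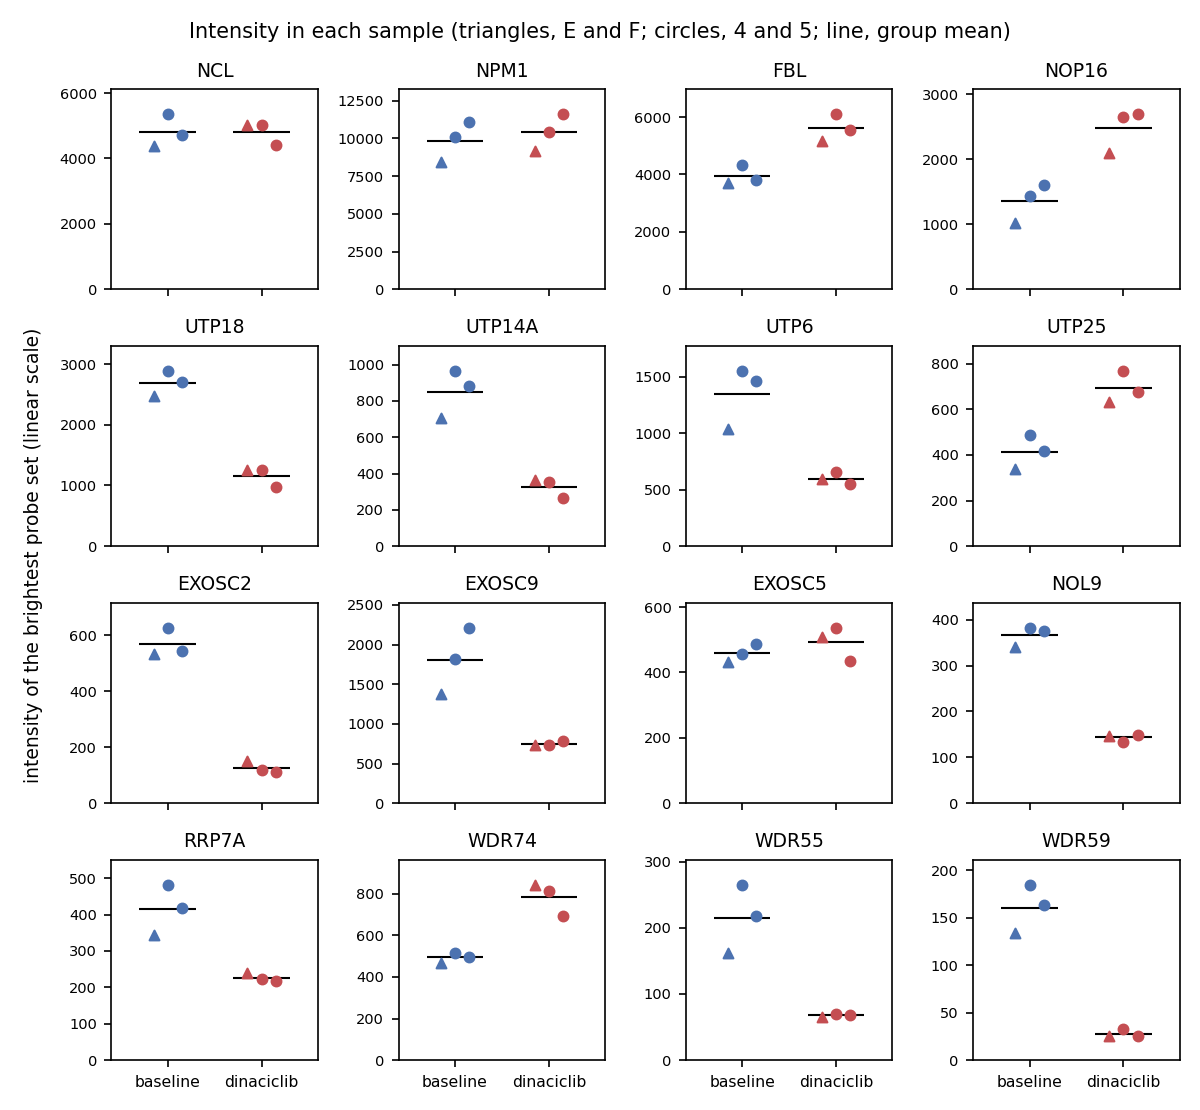
Intensity of the brightest probe set in each of the 6 samples for 16 members, on linear axes that start at 0; triangles are samples E and F, circles samples 4 and 5, and lines group means. EXOSC2, UTP18, WDR59 and NOL9 separate the groups with every treated sample lower, NOP16, UTP25, WDR74 and FBL with every treated sample higher, and NCL, NPM1 and EXOSC5 overlap.

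The 4 NOP genes act at different steps and did not share a direction. NOP16, a factor of the large subunit, read 1026, 1429 and 1605 in baseline E, 4 and 5 and 2101, 2658 and 2698 in dinaciclib F, 4 and 5. Every treated sample was above every baseline sample, yet its log2 change of 0.89 (SE 0.24) lay at the edge of the test (limma Benjamini-Hochberg adjusted p = 0.0502). A second, nearly as bright probe set of NOP16 passed it, at 0.88 (SE 0.20) in the fit of all probe sets (limma Benjamini-Hochberg adjusted p = 0.0305). NOP14, of the small subunit processome, read 696, 653 and 658 at baseline and 558, 389 and 267 after dinaciclib and was lower without overlap, at -0.79 (SE 0.29, limma Benjamini-Hochberg adjusted p = 0.122). The spread of NOP14 was wide after dinaciclib, with an SD of 0.53 log2 units against 0.05 at baseline. NOP10, a core protein of the H/ACA small nucleolar ribonucleoproteins and the NOP gene with the highest signal, had a log2 change of -0.25. NOP2, a methyltransferase of ribosomal RNA and the one with the lowest signal, had 0.30, and neither passed the test. NOP16 was raised in 6 of the alternative fits, quantile normalization and median centring among them, and NOP14 was lowered in 3.

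The UTP genes, all of the small subunit processome, had 4 falls of 7 as deposited. UTP18 read 2473, 2885 and 2707 in baseline E, 4 and 5 and 1259.5, 1248 and 977 in dinaciclib F, 4 and 5. The groups were far apart, with the highest treated sample at 1259.5 and the lowest baseline sample at 2473. Its mean log2 level fell, from 11.39 ± 0.11 to 10.17 ± 0.21 (mean ± SD, n = 3 in each group), a log2 change of -1.22 (SE 0.20, limma Benjamini-Hochberg adjusted p = 0.0104). UTP14A, the UTP gene with the lowest mean signal, read 703, 964 and 883 at baseline and 363, 355 and 263 after dinaciclib and had a larger log2 change, of -1.38 (SE 0.23, limma Benjamini-Hochberg adjusted p = 0.0113). UTP6 read 1035, 1549.5 and 1459 at baseline and 592, 654 and 549.9 after dinaciclib, again without overlap, and fell by 1.15 log2 units (SE 0.23, limma Benjamini-Hochberg adjusted p = 0.0181). UTP3 was the fourth to fall, with a log2 change of -0.94 (limma Benjamini-Hochberg adjusted p = 0.0408). UTP14A and UTP18 also passed with any 1 sample left out, while UTP6 did not without baseline 4, baseline 5, dinaciclib F or dinaciclib 5 (adjusted p between 0.0512 and 0.0734 in limma). With samples left out, UTP3 passed only without baseline E, with adjusted p-values between 0.0683 and 0.132 in limma without any other. It also lost its call after median centring, at -0.48, and after centring on spiked controls (adjusted p = 0.0759 and 0.0663 in limma).

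The other 3 UTP genes did not pass the test. UTP25 read 336, 489 and 419 in baseline E, 4 and 5 and 632, 768 and 678 in dinaciclib F, 4 and 5. It was higher in all 3 treated samples, with a log2 change of 0.75 (SE 0.22, limma Benjamini-Hochberg adjusted p = 0.0588). Of its 4 probe sets, the one with the third highest mean signal passed the test as raised, at 1.11 (SE 0.23, limma Benjamini-Hochberg adjusted p = 0.0232). The second brightest was higher without overlap but did not pass, at 0.85 (limma Benjamini-Hochberg adjusted p = 0.0511). On the dimmest, nearly as bright at baseline as the one that passed, the groups overlapped, at 0.06 (SE 0.32, limma Benjamini-Hochberg adjusted p = 0.93). UTP20 was lower without overlap at -1.07 (SE 0.33, limma Benjamini-Hochberg adjusted p = 0.0748), and UTP11 overlapped at -0.21. UTP25 was raised in 6 alternative fits, including quantile normalization (1.04) and median centring (1.20), so UTP genes lay on both sides of 0 under every scaling.

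Within an array the ratio of 2 probe sets shows unequal change and says nothing of their relative transcript levels. The difference UTP14A minus UTP25 went from 1.04 ± 0.05 log2 units at baseline to -1.09 ± 0.28 after dinaciclib (SD, n = 3 per group), a change of -2.13. UTP18 minus FBL went from -0.56 ± 0.05 to -2.28 ± 0.23, and UTP18 minus NPM1 from -1.87 ± 0.14 to -3.17 ± 0.36. In each pair the 3 arrays of one group lay apart from the 3 of the other. These pairs, and those below, were picked after the members' values were seen, so their separation is a description.

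NOL genes were all lower on average after dinaciclib as deposited, and 4 of 9 passed the test. After quantile normalization 2 of the 9 lay above 0, and after median centring 3. The largest fall was that of NOL3, an apoptosis repressor that is not a ribosome assembly factor, which read 139.6, 184 and 155 in baseline E, 4 and 5 and 31.1, 50.9 and 60.9 in dinaciclib F, 4 and 5. It fell by 1.77 log2 units (SE 0.29, limma Benjamini-Hochberg adjusted p = 0.0112). Its 2 dimmer probe sets changed less. In the fit of all probe sets one fell by 1.22 log2 units (limma Benjamini-Hochberg adjusted p = 0.0115). The other did not pass, at -0.61 (limma Benjamini-Hochberg adjusted p = 0.172). NOL9 is a polynucleotide 5′-kinase needed to process the spacer of the large subunit's precursor. It read 340.2, 382 and 375 at baseline and 147, 133 and 149.6 after dinaciclib, with SDs of 0.09 log2 units in both groups, and fell by 1.34 log2 units (SE 0.17, limma Benjamini-Hochberg adjusted p = 0.00578). NOL6, of the small subunit processome, read 125, 167 and 146 at baseline and 77.1, 75.1 and 43.5 after dinaciclib and fell by 1.18 log2 units (SE 0.28, limma Benjamini-Hochberg adjusted p = 0.0332). NOL3 and NOL9 passed with any 1 sample left out, and NOL6 passed only without dinaciclib F, with adjusted p-values from 0.0545 to 0.11 in limma without any other sample. NOL6 also lost its call under all 3 other scalings and with the letter covariate (adjusted p from 0.0508 to 0.0813 in limma), with a change of -0.69 after quantile normalization and -0.73 after median centring.

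The rest of the NOL genes were NOL8, which fell (-1.12; limma Benjamini-Hochberg adjusted p = 0.0296), and 5 that did not pass. NOL8 lost its call with any sample left out but baseline E (adjusted p from 0.0512 to 0.101 in limma). NOL11, of the small subunit processome, came closest at -0.77 (limma Benjamini-Hochberg adjusted p = 0.0598), with groups that did not overlap, and was lowered in 4 alternative fits. NOL7, with the highest signal of the NOL genes, had a log2 change of -0.42. NOL10 and NOL12 had -0.37 and -0.12. NOL4, not counted here among assembly factors, read only 0.569 to 6.35 over all samples and gave no usable level. Without NOL3 and NOL4, 3 of 7 NOL genes fell, with a median log2 change of -0.77.

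RRP genes act on both subunits, and only RRP7A, of the small subunit processome, fell. It read 345, 481 and 419 in baseline E, 4 and 5 and 238, 222 and 218 in dinaciclib F, 4 and 5. The groups did not overlap, and the log2 change was -0.86 (SE 0.20, limma Benjamini-Hochberg adjusted p = 0.031). Both of its probe sets were called, the other at -0.95 (limma Benjamini-Hochberg adjusted p = 0.028). RRP7A lost its call after quantile normalization and median centring and with any 1 sample left out other than baseline E (adjusted p between 0.0692 and 0.11 in limma). RRP9, a protein of the U3 small nucleolar ribonucleoprotein and the RRP gene with the lowest signal, overlapped at -0.20. Median centring turned RRP15 to a call, as raised. RRP1, RRP8 and RRP12 overlapped too, at -0.54, -0.02 and -0.03.

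For 2 RRP genes the probe sets went different ways. RRP1B, a nucleolar protein and the RRP gene with the highest signal, read 1679.6, 2426 and 1685 at baseline and 1538, 1896 and 1422 after dinaciclib on its brightest probe set, with a log2 change of -0.24. Its other probe set, 56.9-fold dimmer at baseline, read 32.2, 54.9 and 14.6 at baseline and 202, 250.4 and 227 after dinaciclib. That is a rise of 2.89 (SE 0.46, limma Benjamini-Hochberg adjusted p = 0.0111), the largest in size of any probe set of a member. RRP15, a factor of the large subunit, had a log2 change of 0.23 on its brightest probe set and fell on a dimmer one, at -0.86 (SE 0.20, limma Benjamini-Hochberg adjusted p = 0.0336). The files do not say which transcripts each probe set reads, and which of 2 probe sets follows the messenger RNA was not tested.

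**Figure D4:**
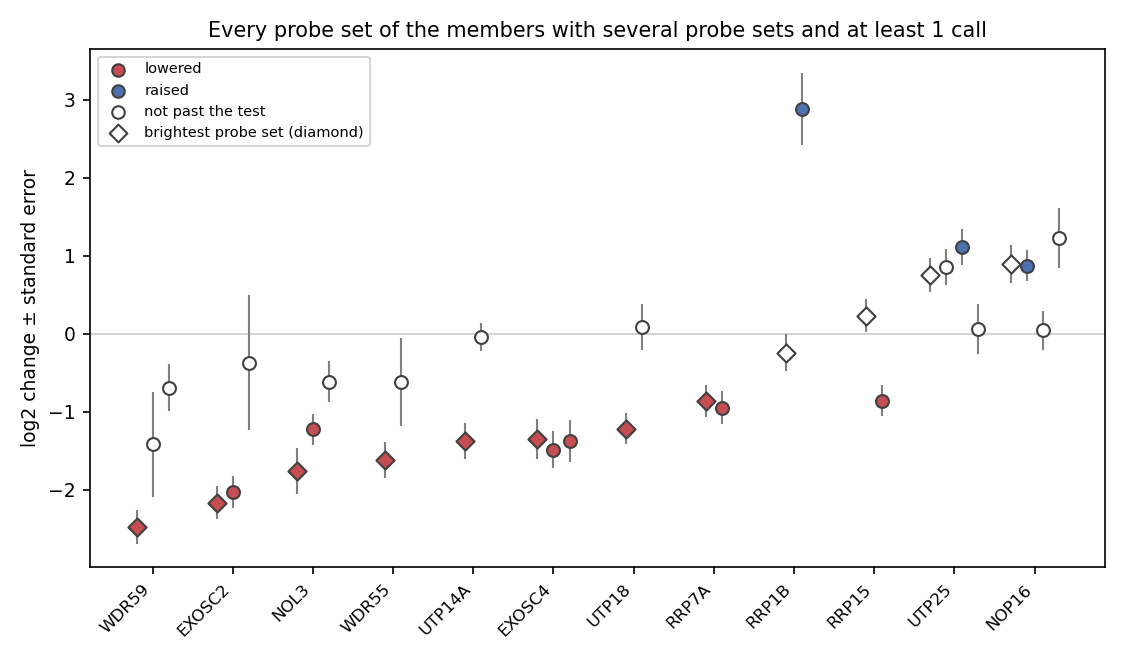
Log2 change with its standard error for every probe set of the 12 members that have several probe sets and at least 1 call; diamonds mark the brightest probe set, red points were lowered, blue points raised and open points did not pass the test. RRP1B and RRP15 have a call on a dimmer probe set that goes the other way from the brightest, while EXOSC4 and RRP7A have calls on every probe set.

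Over all probe sets fitted together, 28 of the 105 that read a member were lowered and 3 raised, against 14% and 3.9% of all probe sets with 1 gene. Of the 22 members with 2 or more probe sets, 2 were called on each of them (EXOSC4 and RRP7A), 10 on some and 10 on none, and none was called in both directions. In 4 members the call lay only on a probe set other than the brightest, namely NOP16, UTP25, RRP1B and RRP15. In UTP18, UTP14A and WDR55 the second probe set did not pass and was dim, at 12.6 to 23.2 for UTP18, 22.6 to 27.2 for UTP14A and 2.87 to 17.4 for WDR55. The probe set of NOL3 that did not pass was brighter, at 31.3 to 71.5. UTP18 and WDR55 lost their calls when a gene's probe sets were averaged (log2 changes of -0.57 and -1.12, adjusted p of 0.13 and 0.0984 in limma).

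Of the exosome's 8 measured EXOSC genes, 3 fell. EXOSC2, which sits on the cap of the ring and contacts RNA, fell most of all members outside the WDR genes. It read 533, 627 and 546 in baseline E, 4 and 5 and 152, 118 and 109.9 in dinaciclib F, 4 and 5. The highest treated sample, 152, lay far below the lowest baseline sample, 533, and the mean log2 level fell, from 9.15 ± 0.13 to 6.98 ± 0.24 (mean ± SD, n = 3 in each group), a log2 change of -2.17 (SE 0.21, limma Benjamini-Hochberg adjusted p = 0.00353). A second probe set gave -2.03 (limma Benjamini-Hochberg adjusted p = 0.00412), and the third, at 1.28 to 19.1, gave no usable level. EXOSC9, a ring protein, read 1381, 1823 and 2208 at baseline and 729, 737 and 782 after dinaciclib and fell by 1.24 log2 units (SE 0.23, limma Benjamini-Hochberg adjusted p = 0.0147). EXOSC4, also of the ring, fell by 1.35 log2 units (SE 0.25, limma Benjamini-Hochberg adjusted p = 0.0158), with treated samples from 171 to 219.6 and baseline samples from 382 to 600.4. All 3 probe sets of EXOSC4 were lowered, with log2 changes from -1.49 to -1.35. EXOSC2 passed with any 1 sample left out. EXOSC4 did not without baseline 4, baseline 5 or dinaciclib 5 (adjusted p from 0.0552 to 0.063 in limma), nor EXOSC9 without baseline 4, baseline 5 or dinaciclib 4 (adjusted p from 0.0518 to 0.0582).

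None of the other 5 EXOSC genes passed the test. EXOSC5 read 431, 458 and 486 in baseline E, 4 and 5 and 509.7, 536 and 436 in dinaciclib F, 4 and 5. Its groups overlapped, and the log2 change was 0.10 (SE 0.18, limma Benjamini-Hochberg adjusted p = 0.76). After median centring EXOSC5 was raised. EXOSC7 and EXOSC8 overlapped at -0.64 and -0.52, and EXOSC8 had the highest signal of the EXOSC genes. EXOSC10, a nuclease that associates with the ring in the nucleus, was lower without overlap at -0.65 (limma Benjamini-Hochberg adjusted p = 0.137). EXOSC1, a cap protein, read 0.777 to 6.30 and gave no usable level. Within arrays, EXOSC2 minus EXOSC5 went from 0.31 ± 0.14 log2 units at baseline to -1.96 ± 0.22 after dinaciclib, and EXOSC9 minus EXOSC5 from 1.95 ± 0.25 to 0.61 ± 0.21 (SD, n = 3 per group). The groups of 3 arrays did not overlap in either difference.

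Among the 7 WDR genes of ribosome assembly, only WDR55 fell. WDR55 read 162, 265 and 218 in baseline E, 4 and 5 and 65.2, 70.4 and 68.1 in dinaciclib F, 4 and 5. It fell by 1.62 log2 units (SE 0.23, limma Benjamini-Hochberg adjusted p = 0.0074). WDR74, a factor of early large subunit assembly, read 469, 518 and 496 at baseline and 842, 811 and 693 after dinaciclib, higher in every treated sample, and had a log2 change of 0.66 (SE 0.18, limma Benjamini-Hochberg adjusted p = 0.0517). WDR3, of the small subunit processome, was also higher without overlap, at 0.61 (limma Benjamini-Hochberg adjusted p = 0.0748). On a second, dimmer probe set of WDR74 the groups overlapped, at 0.30 (SE 0.25, limma Benjamini-Hochberg adjusted p = 0.485 in the fit of all probe sets). WDR74 and WDR3 were raised after quantile normalization and median centring, and the latter raised WDR12 too. WDR12, a subunit of the PeBoW complex of large subunit maturation, had a log2 change of 0.20 as deposited. WDR43, WDR46 and WDR18 had -0.18, -0.41 and -0.36. WDR55 minus WDR74 within an array went from -1.23 ± 0.28 to -3.50 ± 0.17 log2 units, and NOP14 minus NOP16 from -0.99 ± 0.38 to -2.67 ± 0.72 (SD, n = 3 per group). WDR55 and WDR74 were singled out after their values were seen.

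WDR genes of other roles had 9 falls of 24, in proteins that share the fold but act in different processes. WDR59, a subunit of the GATOR2 complex upstream of mTORC1, had the largest fall of all members. It read 133, 184 and 163 in baseline E, 4 and 5 and 25.7, 32.7 and 25.5 in dinaciclib F, 4 and 5, a log2 change of -2.47 (SE 0.22, limma Benjamini-Hochberg adjusted p = 0.00325), or 5.56-fold. WDR73, a gene mutated in Galloway-Mowat syndrome, read 239, 264 and 282 at baseline and 81.5, 75.2 and 62.9 after dinaciclib and fell by 1.83 log2 units (SE 0.19, limma Benjamini-Hochberg adjusted p = 0.00421). WDR5B, a paralog of the chromatin adaptor WDR5, read 65.6, 94.2 and 87.9 at baseline and 23.0, 30.0 and 18.6 after dinaciclib and fell by 1.76 log2 units (SE 0.26, limma Benjamini-Hochberg adjusted p = 0.00774). In all 3 genes each treated sample lay below each baseline sample. The other falls were those of WDR70 (-1.66), WDR19 (-1.62), which acts in intraflagellar transport, WDR7 (-1.19), WDR26 (-0.99), a subunit of the CTLH ubiquitin ligase, WDR6 (-0.90) and WDR13 (-0.90). WDR6 and WDR13 lost their calls under all 3 other scalings, and WDR26 after centring on spiked controls. With 1 sample left out, WDR26 kept its call only without baseline E, WDR6 only without dinaciclib F, and WDR13 in no case (adjusted p from 0.0558 to 0.106 in limma where the call was lost).

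The remaining 15 genes did not pass. WDR91 had the third largest log2 change of all members, -1.97 (SE 0.55, limma Benjamini-Hochberg adjusted p = 0.0533), at intensities of only 3.32 to 51.9. WDR82, a subunit of the SETD1 complexes and the WDR gene with the highest signal, had -0.69. WDR25, with the lowest signal, read 8.54 to 31.0 and had -0.99. WDR4, WDR37, WDR41, WDR45, WDR48, WDR62, WDR76 and WDR77 lay between -0.64 and -0.08. WDR11, WDR44, WDR45B and WDR47 lay above 0, between 0.17 and 0.63, and all 4 were raised after median centring. WDR47 was also raised after quantile normalization.

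The samples named by number were fitted alone, to see the members without E and F. Of the 69 members 16 fell and none rose, against 9.86% and 1.92% of all genes, and 15 of the 16 were among the 22 called from all samples. UTP20 was the exception. All 16 were also lower in F than in E, samples with no part in calling them, with a median log2 difference of -1.20 and a range of -2.33 to -0.80. Over all genes, fallen or not, the median difference from E to F was -0.15, and 58.0% were lower. All 1965 genes lowered in the fit of all samples were also lower in F than in E, but E and F took part in calling these genes. Whether the repeat in E and F is particular to the members was not tested. When 1 of the 6 samples was left out at a time, 12 to 20 members fell and none rose, with 12 without baseline 4 or baseline 5, 13 without dinaciclib 5 and 14 without dinaciclib 4. EXOSC2, NOL3, NOL9, UTP14A, WDR5B, WDR7, WDR19, WDR59, WDR70 and WDR73 passed the test in each of 15 alternative fits, while 0 members passed it in limma with a replicate block, where 40 had an unadjusted p under 0.05.

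**Figure D5:**
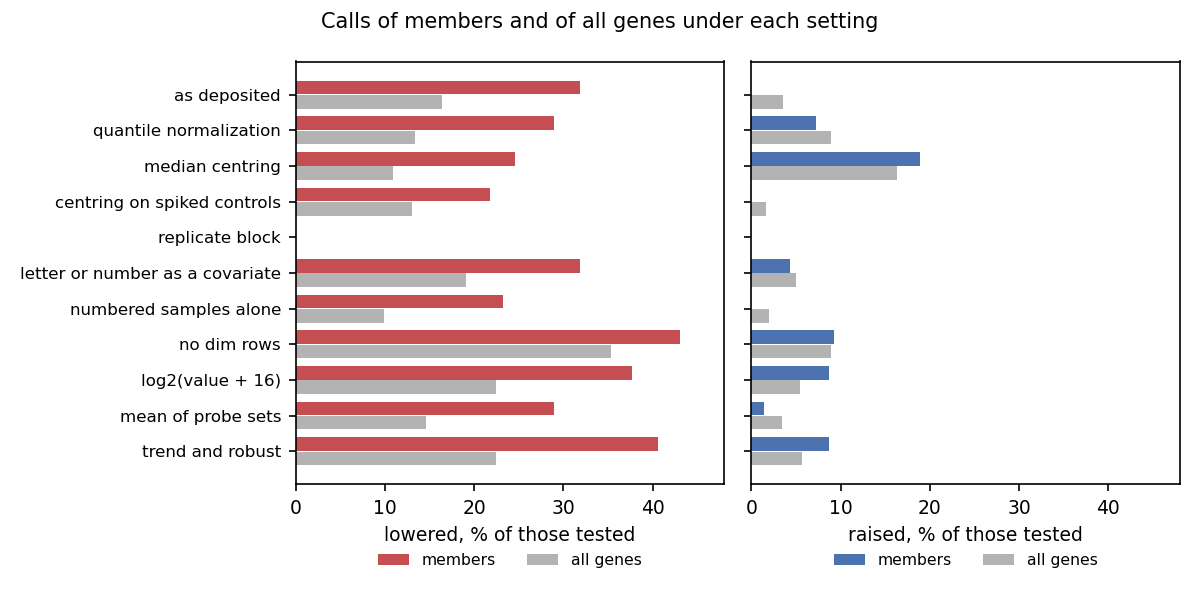
Percentage of members (colour) and of all genes (grey) lowered, left, and raised, right, under the fit as deposited and 10 alternatives. In 10 of the 11 fits a larger percentage of members than of all genes was lowered, and the fit with a replicate block made no call; the percentage raised ran from 0 to 18.8 and moved with the scaling.

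Other genes of the pathway, 80 measured of 101 listed, gave calls in both directions. Of these, 16 fell (20%, against 16.4% of all genes), 7 rose (8.75%, against 3.54%) and 57 did not pass, with a median log2 change of -0.01 that was 0.21 after quantile normalization, 0.44 after median centring and -0.13 after centring on spiked controls. The counts moved too, to 20 raised and 9 lowered after quantile normalization and to 35 raised and 7 lowered after median centring. Of all genes, 8.89% rose and 13.4% fell after quantile normalization, and 16.3% rose and 10.9% fell after median centring. Of 24 small subunit factors outside the UTP, NOL, NOP, RRP and WDR names, 5 fell (20.8%). Among them were EMG1, a methyltransferase of 18S ribosomal RNA, at -2.31 (SE 0.19, limma Benjamini-Hochberg adjusted p = 0.00325) and DIMT1, another, at -1.44 (limma Benjamini-Hochberg adjusted p = 0.0138). In the same list 3 rose (12.5%), with PNO1 at 1.16 (limma Benjamini-Hochberg adjusted p = 0.0131) and MPHOSPH10, which binds the U3 particle, at 0.91 (limma Benjamini-Hochberg adjusted p = 0.029). MPHOSPH10 lost its call after centring on spiked controls, in the numbered samples alone and with any 1 sample left out (adjusted p from 0.0605 to 0.13 in limma). DIMT1 lost its call without baseline 4 or baseline 5, and PNO1 without dinaciclib 4 (adjusted p from 0.0509 to 0.0556 in limma).

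Of 27 large subunit factors 6 fell (22.2%) and 2 rose (7.41%), against 16.4% and 3.54% of all genes. The methyltransferase FTSJ3 fell by 1.85 log2 units (limma Benjamini-Hochberg adjusted p = 0.00393) and the ATPase NVL had a log2 change of -1.26 (limma Benjamini-Hochberg adjusted p = 0.0086). NMD3, the export adaptor of the large subunit, rose by 1.90 (limma Benjamini-Hochberg adjusted p = 0.00515) and BRIX1 by 1.15 (limma Benjamini-Hochberg adjusted p = 0.0352). FTSJ3, NVL and NMD3 passed with any 1 sample left out and under every scaling. BRIX1 lost its call after centring on spiked controls, in the numbered samples alone and with any 1 sample left out other than dinaciclib 5 (adjusted p from 0.0824 to 0.162 in limma).

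Among 14 genes of RNA polymerase I and its factors 3 fell (21.4%) and 1 rose (7.14%), against 16.4% and 3.54% of all genes. TAF1B and POLR1E had log2 changes of -2.04 and -1.01 (limma Benjamini-Hochberg adjusted p = 0.00527 and 0.0387), and POLR1F, another subunit of the polymerase, rose by 1.64 (limma Benjamini-Hochberg adjusted p = 0.00902). POLR1E lost its call under all 3 other scalings, at -0.63 after quantile normalization and -0.56 after median centring, with the letter covariate, in the numbered samples alone and with any 1 sample left out other than dinaciclib F (adjusted p from 0.0503 to 0.123 in limma). POLR1F lost its call in the numbered samples alone (adjusted p = 0.0536 in limma). Of 7 exosome partners 1 rose and 1 fell (14.3% each). DIS3, a catalytic nuclease of the exosome, rose by 1.06 (limma Benjamini-Hochberg adjusted p = 0.0244), while MTREX, its nuclear helicase, fell by 0.74 (limma Benjamini-Hochberg adjusted p = 0.0429). DIS3 lost its call after centring on spiked controls, in the numbered samples alone and with any 1 sample left out other than dinaciclib F (adjusted p from 0.0531 to 0.0823 in limma). MTREX lost its call under all 3 other scalings, in the numbered samples alone and with any 1 sample left out other than baseline E (adjusted p from 0.0673 to 0.155), and its change was -0.38 after quantile normalization and -0.28 after median centring. Of 9 other nucleolar genes 1 fell (11.1%), namely KNOP1, by 0.96 (limma Benjamini-Hochberg adjusted p = 0.0352). KNOP1 lost its call under all 3 other scalings and with any 1 sample left out other than baseline E (adjusted p from 0.0538 to 0.125 in limma), with a change of -0.48 after quantile normalization and -0.51 after median centring.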

How the data were processed

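The deposited table holds linear intensities, 1 per probe set and array; the values show this, since they are neither logged nor brought to a common median, and how they were made is not given in the labels. Probe sets were named from the platform annotation. After 62 control probe sets were set aside, 19064 had 1 gene, 1043 several and 2108 none, and each of 11963 genes took its brightest probe set. A further 13 probe sets name a member among several genes, and NOP14-AS1 and WDR83OS, named for the other strand, are no members.

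Values as log2(value + 1), not normalized further, were fitted with limma 3.58.1 in R 4.3.3 with group as the only term, and the p-values of 15114 probe sets, 3151 of them without a single gene, were adjusted by the Benjamini-Hochberg method at 0.05. The steps were tested on simulated data. The members and gene lists were chosen with earlier results of these data known. Named were, per symbol group, the 3 largest called changes each way, the brightest and dimmest member, members called on another probe set, and the 2 largest called changes each way per pathway list; other members are named in counts, with values where their groups did not overlap or a complex needed them, a choice made after their values were seen. Promoters are RefSeq's on GRCh38.p14. Alternatives were 3 other scalings, a replicate block, letter against number as a covariate, the numbered samples alone, no genes under the 40th percentile of signal, log2(value + 16), averaging of each gene's probe sets, a variance trend with robust estimation, and each sample left out. Figures used matplotlib 3.10.9 in Python 3.11.15. The number of arrays limits the precision.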

Additional observations from a re-analysis of the deposited data

How the results depend on the processing

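Every alternative kept the direction of each called member. RRP1B, not called as deposited, was called against its deposited sign when its 2 probe sets were averaged, going from -0.24 to 1.32. Of 1100 values of members under the alternatives, 944 kept their side of the threshold and 94 lost a call. A further 61 gained a call with their sign as deposited and 1, that of RRP1B, with the other sign. Uncalled values that crossed 0 count among the 944. Members below 0 numbered 54 as deposited, 45 after quantile normalization and 37 after median centring. The cause of these changes was not tested.

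The replicate numbers 4 and 5 occur in both groups, but the labels do not say whether they pair the samples. The titles number the samples in sequence, with E next to F and the samples of each replicate number next to each other. Deviations from the group means correlated at 0.074 for the pair numbered 4, 0.073 for the pair numbered 5 and 0.147 for E and F. All other pairs of a baseline and a treated sample were lower, between -0.098 and 0.030. A fit that pairs E with F was not made, and the fit with a replicate block cannot test such a pairing. With a replicate block, E and F have no partner and 1 residual degree of freedom is left, and limma called 0 of 69 members, 0 in every subgroup, 0 other pathway genes and 0 genes in all, with 40 members and 4093 genes at an unadjusted p under 0.05. The lowest adjusted p of a member was 0.0933.

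With 1 sample left out, 12 to 20 members were lowered (22 with all), 2 to 3 NOL, 2 to 5 UTP, 0 to 1 RRP, 1 to 3 EXOSC and 7 to 9 WDR members among them. Of the other pathway genes, 4 to 15 were lowered and 2 to 5 raised.

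Raised members numbered 5 after quantile normalization, 13 after median centring, 3 with the letter covariate, 6 without dim genes, 6 with log2(value + 16), 1 with averaged probe sets and 6 with a variance trend. In the same order, these were 7.25%, 18.8%, 4.35%, 9.23%, 8.70%, 1.45% and 8.70% of the members tested. Of all genes tested, 8.89%, 16.3%, 5.01%, 8.88%, 5.39%, 3.42% and 5.64% were raised. By subgroup, raised NOP and UTP members each numbered 1 in these fits except that with averaged probe sets. Raised RRP members numbered 1 after median centring and 1 with averaged probe sets, and raised EXOSC members 1 after median centring. Of NCL, NPM1 and FBL, 2 were raised after median centring, and 1 without dim genes, with log2(value + 16) and with a variance trend. Raised WDR members numbered 3 after quantile normalization (2 of ribosome assembly, 1 other), 7 after median centring (3 and 4), 1 with the letter covariate (of ribosome assembly) and 3 (2 and 1) without dim genes, with log2(value + 16) and with a variance trend.

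Lowered NOL members numbered 2 after centring on spiked controls and 2 in the numbered samples alone. Lowered RRP members numbered 0 after each of the other 3 scalings and in the numbered samples alone. Lowered NOP members numbered 1 without dim genes, with log2(value + 16) and with a variance trend, lowered EXOSC members 5 without dim genes, and lowered WDR members of ribosome assembly 0 with averaged probe sets.

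Other pathway genes lowered and raised numbered 9 and 20 after quantile normalization, 7 and 35 after median centring, 7 and 3 after centring on spiked controls, and 7 and 2 in the numbered samples alone. Raised ones numbered 14 with the letter covariate, 17 without dim genes, 15 with log2(value + 16) and 17 with a variance trend. The shares of all genes raised in the same fits are given above.

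Over all genes, lowered and raised calls were 1965 and 423 as deposited, 1606 and 1064 after quantile normalization, 1300 and 1950 after median centring, 898 and 255 without baseline 4, and 925 and 193 without baseline 5. EXOSC1 and NOL4, under 16 in intensity in every sample, have too little signal for a change to be read, and the changes of WDR25 and WDR91 rest on treated samples as low as 8.54 and 3.32.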
